A study of Mus musculus with 8 samples.

Results

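Genes that carry out mitosis were followed across 8 one-colour arrays of the left lung lobe of E14.5 mouse embryos. The group was set by name as 31 genes of mitotic entry, the spindle, the kinetochore, chromosome separation and cytokinesis. All 31 were on the array, among 24583 named genes, and each was read from its brightest spot. A total of 4 arrays were labelled experimental and 4 control, each numbered 1 to 4 in the titles. According to the study, all embryos were homozygous for rtTA at Rosa26 (rtTA/rtTA). The experimental ones carried in addition 1 copy of the transgene Tg(tet(o)sFgfr2b), and the controls were littermates without it (+/+). Rosa26 drives the transactivator in all cells. With doxycycline the transgene makes a secreted Fgfr2b ectodomain that captures the ligands of Fgfr2b, among them Fgf1, Fgf7 and Fgf10. All mothers, those of controls included, received 0.0015 mg of doxycycline per g of body weight 9 h before dissection.

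Cell division is driven by Cdk1 bound to cyclins A and B, which launches chromosome condensation and spindle assembly. The spindle checkpoint holds the cell until every kinetochore is attached. The anaphase-promoting complex, with Cdc20 and Ube2c, then marks securin and cyclin B for destruction. Transcripts of these genes accumulate late in the cycle, so in a whole tissue their level follows the share of cells that are dividing. In the pseudoglandular lung both the epithelial buds and the mesenchyme divide, and Fgf ligands act as growth signals for the epithelium. The question put by the comparison is whether mitotic transcripts differed when these ligands were captured for 9 h. In a lobe measured in bulk, fewer dividing cells and less transcript per cell cannot be told apart.

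A shared feature of these genes that did not enter their choice is the make-up of their promoters. In mammals, late cell cycle genes are known for a cell cycle genes homology region (CHR), bound by the MuvB complex with B-Myb or FoxM1, and for CCAAT boxes, bound by NF-Y. RefSeq windows (GRCm38.p6) of 300 bases around the gene start were found for 25 of the 31 genes. The CHR letters TTTGAA, read on both strands, occurred in 18 of the 25 (72.0%), against 18.1% of 27025 genes with such a window. CCAAT, on both strands, occurred in 19 (76.0%), against 37.9% of all genes, and at 2 or more places in 12 (48.0%), against 12.2%. The alternative CHR letters TTTAAA were present in 7 (28.0%), against 13.2%. Both CCAAT and either form of the CHR stood in 18 windows (72.0%), against 10.9% of all genes. Mad2l1, Nuf2, Nusap1 and Pttg1 held neither motif in the window. A match of letters is a description and not a binding site. For 5 of the genes described in detail, a stretch with motifs is given, with CCAAT and the CHR in capitals. It holds all matches of the window except in Ccnb2, where 1 of 2 CHR matches lies upstream of it. The genes are Cdc20 (chr4:118437324-118437453, minus strand), Ccnb2 (chr9:70421535-70421664, minus strand), Prc1 (chr7:80294341-80294470, plus strand) and Ttk (chr9:83834579-83834708, plus strand), each 5′ to 3′ on the strand of the gene from position -110 to position 20 around the start, and Mki67 (chr7:135716450-135716579, minus strand), from position -200 to position -71.
Cdc20: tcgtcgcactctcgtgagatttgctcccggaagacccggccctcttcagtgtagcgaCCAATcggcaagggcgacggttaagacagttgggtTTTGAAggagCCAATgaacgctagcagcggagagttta
Ccnb2: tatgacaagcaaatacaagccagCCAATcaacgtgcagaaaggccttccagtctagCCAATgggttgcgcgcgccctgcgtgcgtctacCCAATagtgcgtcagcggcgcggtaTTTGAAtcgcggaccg
Prc1: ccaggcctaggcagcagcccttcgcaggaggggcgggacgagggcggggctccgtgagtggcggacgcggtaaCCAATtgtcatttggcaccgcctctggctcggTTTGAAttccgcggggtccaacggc
Ttk: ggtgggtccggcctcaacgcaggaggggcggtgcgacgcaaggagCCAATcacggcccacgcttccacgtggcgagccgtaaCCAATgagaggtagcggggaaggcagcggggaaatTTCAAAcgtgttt
Mki67: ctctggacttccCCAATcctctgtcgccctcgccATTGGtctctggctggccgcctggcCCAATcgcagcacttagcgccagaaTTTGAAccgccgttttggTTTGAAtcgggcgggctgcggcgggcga
In Ttk the CHR lies on the opposite strand and reads TTCAAA, and in Mki67 1 of the 3 CCAAT boxes does so and reads ATTGG.

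The deposited values are quantile-normalized log2 signals, with a median of 4.43 on every array, and pairs of arrays correlated across genes at 0.986 to 0.992. The direct Fgf target Etv5, an Ets factor of the distal epithelium, did not separate the labels. Its log2 signal was 10.42, 10.43, 13.11 and 13.26 under the experimental label (1 to 4), against 10.09, 10.57, 13.18 and 13.26 under the control label. Numbers 1 and 2 were low and numbers 3 and 4 high under both labels. Etv4, a related Fgf target, differed by -0.30 between the labels and by -1.87 between numbers 1 and 2 and numbers 3 and 4, and Sox9, a factor of the distal tips, by -0.33 and -1.98. Etv5 differed by 0.03 between the labels and by -2.83 between the same sets of numbers. The study reports that Etv5, Etv4 and Sox9 were lower in experimental lungs on the array. Its fold changes for these genes match the differences between the numbers and not those between the labels. Arrays numbered 1 and 2 thus stand where experimental lungs would, under both labels. How the deposited labels came to differ from that division could not be settled here. Every labelled difference below is one between arrays as labelled at deposit, and it should not be read as the effect of the transgene. The groups are called arrays labelled experimental or control for this reason, and the members are also described by title number. The sources do not say what the number stands for or whether arrays of one label come from separate litters, so the p-values refer to the spread among these 8 arrays, which may be technical.

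The mitosis genes were level across all 8 arrays. Their mean log2 signal was 11.13, 11.15, 11.12 and 11.17 under the experimental label (1 to 4), against 11.07, 11.12, 11.11 and 11.13 under the control label. The means were 11.14 ± 0.02 and 11.11 ± 0.03 (SD, n = 4 each), and no p is given for a mean over genes chosen with results known. Single genes also varied little. The standard deviation over the 8 arrays was 0.07 (Aurka) to 0.21 (Ndc80), with a median of 0.11 over the 31 genes. The median over the 12291 genes brighter than the median gene, to which all 31 belong, was 0.17. Of the 31, 27 lay below it. That set begins at a mean signal of 5.79 and the members at 7.23, so the comparison is not matched for brightness. In the 5 other lists of mitosis genes described below, the median ran from 0.10 (cytokinesis) to 0.18 (kinesins and spindle). A low spread is thus not particular to the members. The widest range of any member, that of Ndc80, was 0.68 on the log2 scale.

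**Figure D1:**
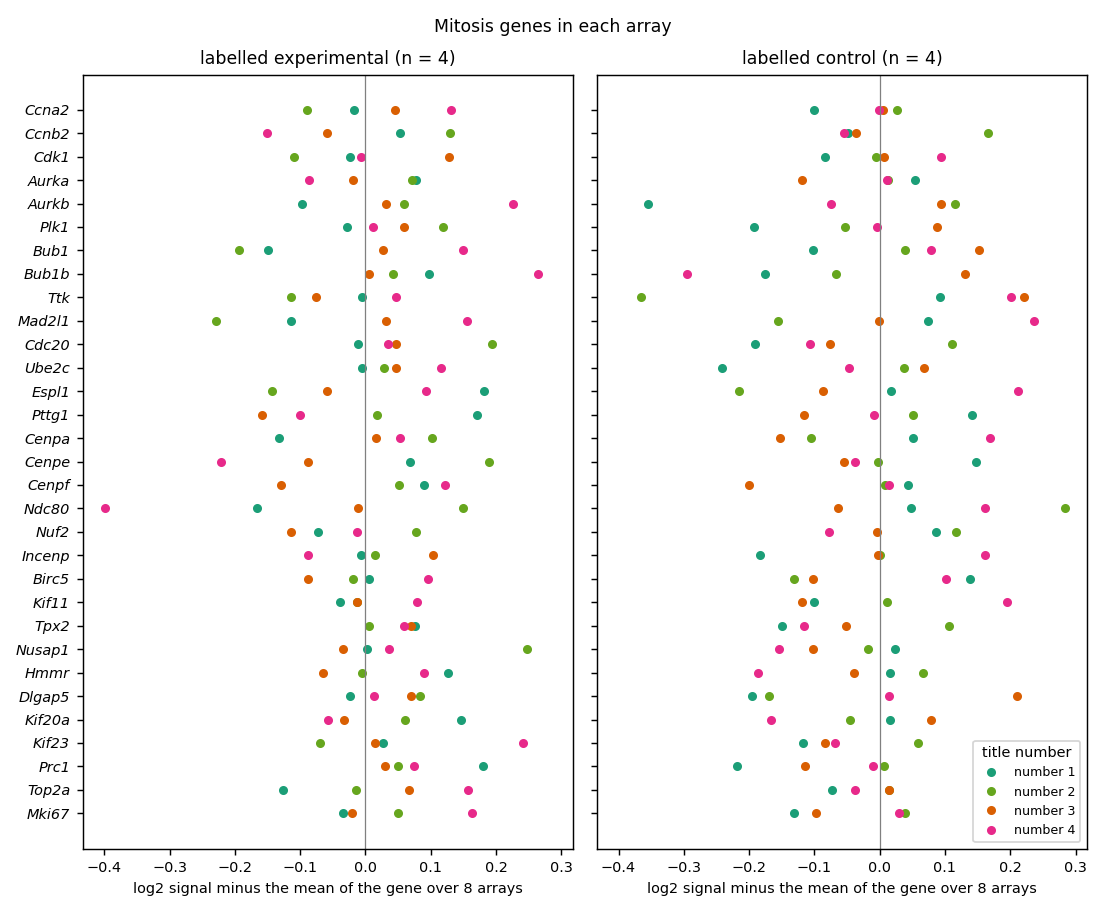
Log2 signal of each of the 31 mitosis genes in each array, minus the mean of the gene over all 8 arrays (x axis), for the 4 arrays labelled experimental (left) and the 4 labelled control (right). Colours give the title number. No gene spans more than 0.68, and no colour keeps to one side over the whole group.

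Between the labelled groups 0 of the 31 genes passed at an adjusted p under 0.05 (limma, Benjamini-Hochberg over all genes), beside 0% of the 24583 genes. At an unadjusted p under 0.05 it was also 0 of 31, beside 3.56% of all genes, and the methods' t-test gave 1 (Prc1), and 0 after Benjamini-Hochberg adjustment. In sign, 21 members were higher under the experimental label and 10 lower. The median difference was 0.04, beside 0.00 over all genes. Member differences ran between -0.21 (Ndc80) and 0.20 (Bub1b). The 95% confidence interval lay wholly within 0.5 log2 units of 0 for 30 of the 31 genes. It did so for 75.1% of the brighter genes, which include dimmer genes than any member. The exception among the members was Ndc80. Among the other 30 the interval that stayed closest to 0 was that of Cdk1 (-0.23 to 0.22) and the one that reached farthest was that of Bub1b (-0.08 to 0.48).

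**Figure D2:**
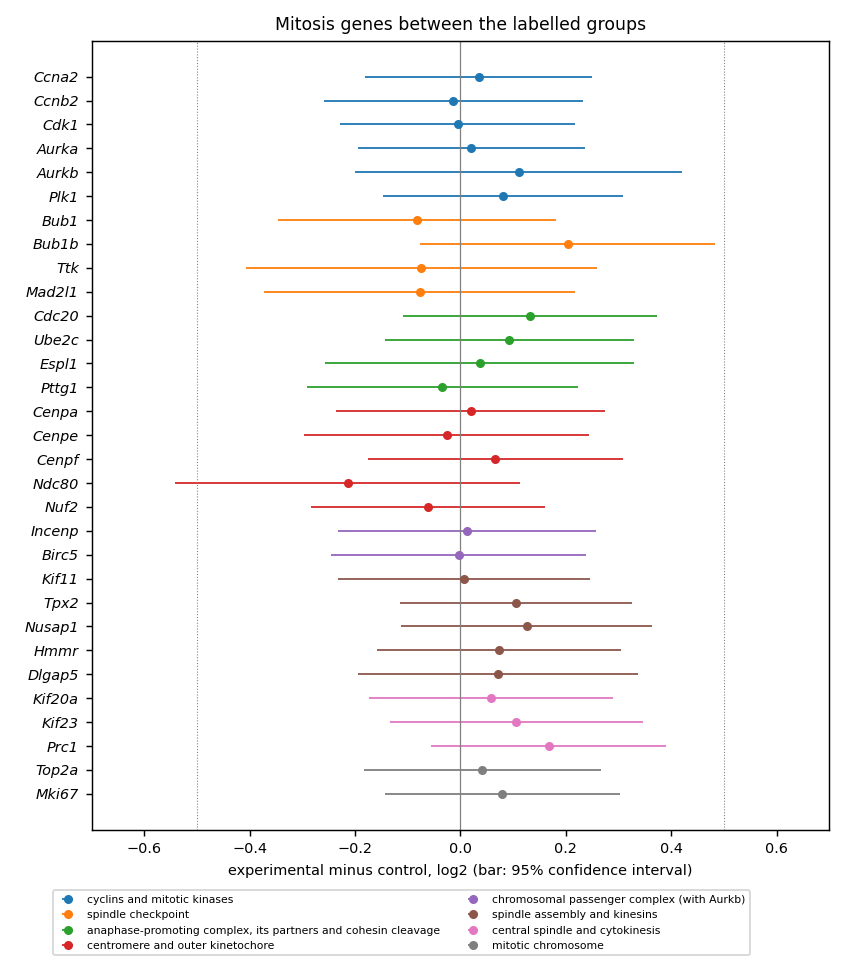
Difference between the arrays labelled experimental and those labelled control (x axis, log2, n = 4 each) for the 31 mitosis genes, with 95% confidence intervals from limma. Colours give the role of each gene and dotted lines mark 0.5 on either side of 0. Every interval includes 0, and that of Ndc80 reaches beyond -0.5.

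The kinases that drive mitosis and their cyclins gave differences near 0. Ccna2 and Ccnb2, cyclins of the G2 and M phases, differed by 0.03 ± 0.09 and -0.01 ± 0.11 (SE), and their partner Cdk1 by -0.01 ± 0.10. Ccnb2 had 12.81, 12.89, 12.70 and 12.61 under the experimental label (1 to 4), against 12.71, 12.92, 12.72 and 12.70 under the control label. Within both labels number 2 was its highest array. Aurka, the kinase of centrosomes and spindle poles, differed by 0.02 ± 0.09 and Plk1, which acts from mitotic entry to cytokinesis, by 0.08 ± 0.10. Aurkb, the kinase of the chromosomal passenger complex, differed by 0.11 ± 0.14. Its lowest array was control 1, at 9.95, and the other 7 lay between 10.21 and 10.53. Incenp, the scaffold of that complex, differed by 0.01 ± 0.11 and Birc5 (survivin), which docks it at centromeres, by -0.00 ± 0.11. Birc5 had 13.83, 13.80, 13.74 and 13.92 under the experimental label (1 to 4), against 13.96, 13.69, 13.72 and 13.92 under the control label, so the groups overlapped over almost their whole range.

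Among the genes of the spindle checkpoint 1 was higher and 3 lower in sign. Bub1b (BubR1), part of the mitotic checkpoint complex that inhibits Cdc20, had the largest positive difference of all members, 0.20 ± 0.12 (SE, interval -0.08 to 0.48, adjusted p = 1.0). It had 9.75, 9.69, 9.66 and 9.92 under the experimental label (1 to 4), against 9.48, 9.58, 9.78 and 9.36 under the control label. Control 3 lay among the experimental arrays. Bub1, the kinase that recruits the checkpoint to kinetochores, differed by -0.08 ± 0.12, Ttk (Mps1), the kinase that starts the signal, by -0.07 ± 0.15 and Mad2l1 (Mad2), which binds Cdc20 in the checkpoint complex, by -0.08 ± 0.13.

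Of the genes around the anaphase-promoting complex, its mitotic activator Cdc20 was higher under the experimental label in all 4 numbers at its brightest spot. It had 12.32, 12.52, 12.38 and 12.37 under the experimental label (1 to 4), against 12.14, 12.44, 12.25 and 12.22 under the control label, a difference of 0.13 ± 0.11 that did not pass. The groups overlapped through control 2. The ubiquitin-conjugating enzyme Ube2c differed by 0.09 ± 0.10, separase (Espl1), which cleaves cohesin, by 0.04 ± 0.13 and its inhibitor securin (Pttg1) by -0.03 ± 0.11.

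At the kinetochore, Ndc80, the microtubule-binding subunit that gives its complex its name, had the largest negative difference (-0.21 ± 0.14, interval -0.54 to 0.11). Its values were 8.96, 9.28, 9.12 and 8.73 under the experimental label (1 to 4), against 9.18, 9.41, 9.07 and 9.29 under the control label, with experimental 4 the lowest of the 8. Its complex partner Nuf2 differed by -0.06 ± 0.10. The centromeric histone variant Cenpa differed by 0.02 ± 0.11, the kinetochore motor Cenpe by -0.03 ± 0.12 and Cenpf, a large kinetochore-associated protein, by 0.07 ± 0.11.

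At their brightest spots all 8 genes of the spindle and of cytokinesis were higher in sign, and 0 of the 8 passed. With the mean of all spots Kif23 was lower, by -0.13. Kif11 (Eg5), the motor that separates spindle poles, differed by 0.01 ± 0.11, Tpx2, which activates Aurka on the spindle, by 0.10 ± 0.10, Nusap1 by 0.13 ± 0.10, Hmmr by 0.07 ± 0.10 and Dlgap5 by 0.07 ± 0.12. The last 3 bind or stabilize spindle microtubules. Of the proteins of the central spindle, Kif20a differed by 0.06 ± 0.10, Kif23 by 0.11 ± 0.11 and Prc1, which bundles antiparallel microtubules there, by 0.17 ± 0.10. Prc1 had 11.97, 11.84, 11.81 and 11.86 under the experimental label (1 to 4), against 11.57, 11.79, 11.67 and 11.78 under the control label. It was the 1 member of 31 whose groups did not overlap, beside 1.90% of all genes, and it did not pass (interval -0.05 to 0.39, adjusted p = 1.0). At its second-brightest spot the groups overlapped.

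Top2a, the topoisomerase that untangles sister chromatids, differed by 0.04 ± 0.10. Mki67, which encodes the proliferation marker Ki67 of the chromosome surface, had 13.73, 13.82, 13.75 and 13.93 under the experimental label (1 to 4), against 13.64, 13.81, 13.67 and 13.80 under the control label. The difference was 0.08 ± 0.10 (interval -0.14 to 0.30), and the experimental 1 and 3 arrays lay inside the range of the controls. In total 4 members had a difference of the same sign within every number, beside 11.8% of all genes. These were Cdc20, Cenpf, Mki67 and Prc1, each of them higher under the experimental label. The second-brightest spots of Cdc20, Cenpf and Prc1 did not repeat this, and Mki67 had 1 spot. That of Cdc20 was lower under the experimental label in number 1 (11.07 against 11.15). The same held for Prc1 in number 3 (9.82 against 10.14) and for Cenpf in number 4 (9.90 against 10.41). Within numbers 1 to 4, 21, 16, 18 and 17 of the 31 genes were higher in the array labelled experimental, with median differences of 0.08, 0.01, 0.03 and 0.06. With the replicate number as a block 0 members passed as well.

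By title number the mitosis genes as a whole showed no common step. Taken as a factor of 4 levels, the number gave 0 of 31 members at an adjusted p under 0.05 (limma, moderated F test), beside 0.0285% of all genes, 7 in number, of which 0 passed when any 1 array was left out. At an unadjusted p under 0.05 it gave 0 of 31, beside 9.84%. The smallest adjusted p of a member was 0.60. Numbers 1 and 2 were then set against numbers 3 and 4, the division that Etv5 follows in these same arrays, and for that reason this is a description with no test. Members were higher in numbers 1 and 2 in 13 cases and lower in 18, with a median difference of -0.04, and the largest difference of any member was 0.21 in size. Etv5 differed by -2.83. A total of 3 of the 31 genes (9.68%) did not overlap between the 4 arrays numbered 1 or 2 and the 4 numbered 3 or 4, beside 10.6% of all genes. Those 3 were all higher in numbers 1 and 2, where the share of all genes was 5.17%, and 0 were lower, beside 5.39%. With so few arrays that count moved to 5 without experimental 2 or control 1 and to 6 without experimental 4 or control 2.

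The 3 genes were Aurka, Pttg1 and Cenpe. Aurka had 12.26 and 12.25 in experimental 1 and 2 and 12.24 and 12.20 in control 1 and 2, against 12.16 and 12.10 in experimental 3 and 4 and 12.06 and 12.19 in control 3 and 4. Cenpe had 11.87, 12.00, 11.95 and 11.80 in experimental 1, experimental 2, control 1 and control 2, against 11.72, 11.59, 11.75 and 11.77 in the arrays numbered 3 and 4 in the same order. Pttg1 had 11.68, 11.53, 11.65 and 11.56 in numbers 1 and 2, against 11.35, 11.41, 11.40 and 11.50 in numbers 3 and 4. In all 3 genes the gap between the sets was smaller than the spread within either set, and in Aurka control 2 and control 4 were almost level. Cenpe (0.20) and Pttg1 (0.19) had the largest differences on this side, followed by Ndc80 (0.16) and Ccnb2 (0.15), whose sets overlapped. Aurka differed by 0.11.

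At the other end stood the spindle checkpoint, whose 4 genes were all lower in numbers 1 and 2 at their brightest spots. Bub1 was higher there with the mean of its spots, of which the second was dim (mean 3.24 against 9.79). Mad2l1 had 11.23, 11.11, 11.41 and 11.19 in experimental 1, experimental 2, control 1 and control 2, against 11.37, 11.50, 11.34 and 11.58 in the arrays numbered 3 and 4, a difference of -0.21. Bub1 had 9.64, 9.60, 9.69 and 9.83 in numbers 1 and 2, against 9.82, 9.94, 9.95 and 9.87 in numbers 3 and 4, a difference of -0.20. Each of these sets overlapped through 1 control array numbered 1 or 2. Ttk had 8.95, 8.84, 9.04 and 8.58 in numbers 1 and 2, against 8.87, 9.00, 9.17 and 9.15 in numbers 3 and 4, and differed by -0.20, with control 2 the lowest of the 8. Bub1b differed by -0.05. The 4 checkpoint genes averaged 9.80 to 9.91 in numbers 1 and 2 and 9.93 to 10.09 in numbers 3 and 4. These means, taken at the brightest spots, did not overlap. Dlgap5, a spindle protein, was at 7.20, 7.31, 7.03 and 7.06 in numbers 1 and 2, against 7.30, 7.24, 7.44 and 7.24 in numbers 3 and 4, a difference of -0.15 with overlapping sets.

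The replication genes, which act in S phase, had other values in the same arrays. The list held 49 measured genes, among them the Mcm helicase, origin and fork proteins. Its mean was 10.71, 10.78, 10.99 and 11.02 under the experimental label (1 to 4), against 10.78, 10.84, 10.97 and 11.04 under the control label. Of the 49 genes 46 were lower in numbers 1 and 2, and 26 (53.1%) did not overlap, all 26 of them lower, beside 5.39% of all genes. The median difference was -0.24, against -0.04 for the mitosis genes. Mcm2, a helicase subunit, had 10.65, 10.51, 10.62 and 10.62 in experimental 1, experimental 2, control 1 and control 2, against 10.95, 11.39, 10.93 and 11.00 in numbers 3 and 4. Between the labelled groups 17 replication genes were higher and 32 lower, and 0 passed. The factor test called 0 of the 49 as well. With an intensity trend in limma it called 735 genes, 2.99% of all, among them 13 replication genes and 0 mitosis genes.

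**Figure D3:**
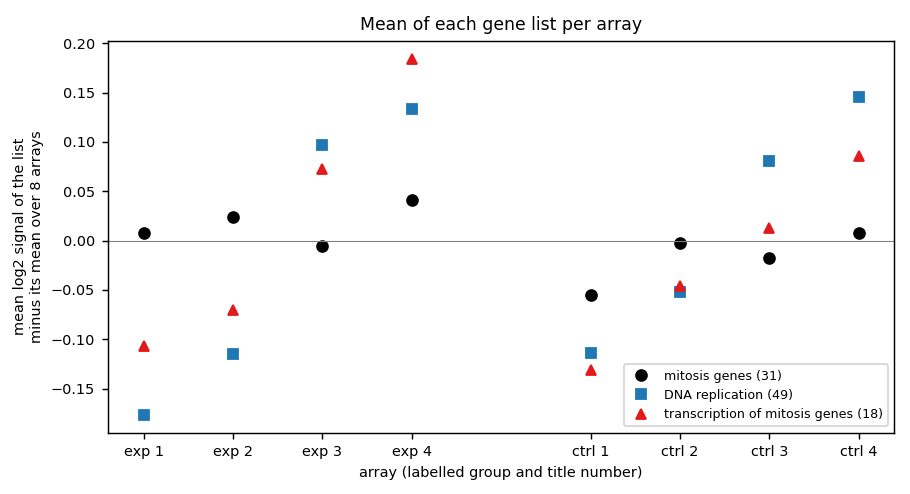
Mean log2 signal of the 31 mitosis genes, 49 DNA replication genes and 18 genes that control transcription of mitosis genes in each array, minus the mean of that list over the 8 arrays (y axis). Arrays labelled experimental stand left of those labelled control. The mitosis genes stay within 0.10 of each other, while both other lists are lower in every array numbered 1 or 2 than in any numbered 3 or 4.

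Genes that act upstream of mitotic transcription were also set by number. The 18 genes of the MuvB, B-Myb, FoxM1, E2F and NF-Y list were all lower in numbers 1 and 2, with a median difference of -0.15, and 4 of them (22.2%), Mybl2, Tfdp1, E2f4 and E2f8, did not overlap, beside 5.39% of all genes not overlapping and lower. Mybl2 (B-Myb), itself an E2F target, had 10.09, 10.32, 10.07 and 10.54 in experimental 1, experimental 2, control 1 and control 2, against 10.65, 10.57, 10.70 and 10.63 in numbers 3 and 4. Foxm1 differed by -0.07, with 10.61, 10.60, 10.56 and 10.49 in numbers 1 and 2 and 10.56, 10.77, 10.49 and 10.72 in numbers 3 and 4. Between the labelled groups 0 of the 18 passed. The smallest p belonged to Rbl2 (p130), a pocket protein that represses cell cycle genes, at 0.33 ± 0.17 (SE).

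**Figure D4:**
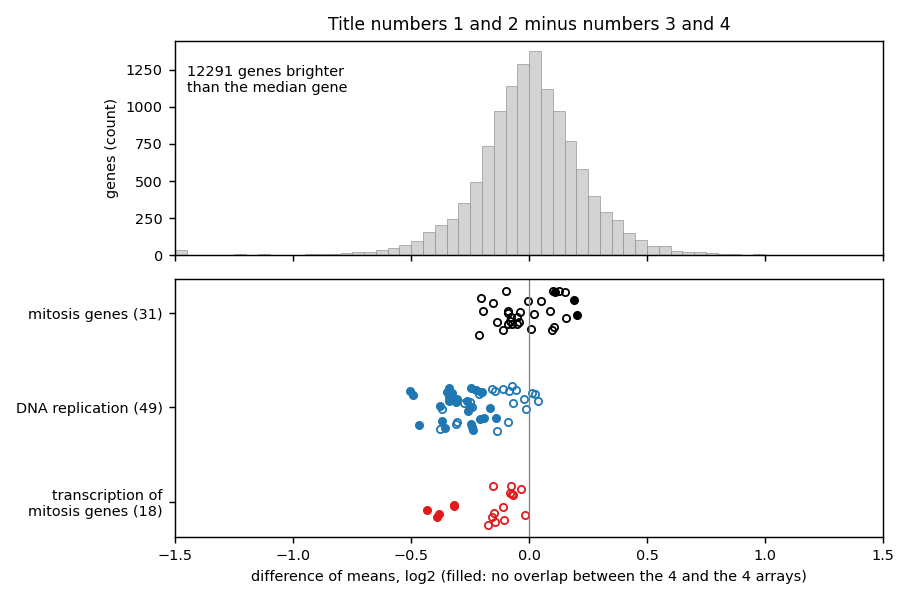
Mean of the 4 arrays numbered 1 or 2 minus mean of the 4 numbered 3 or 4 (x axis, log2). The top panel counts the 12291 genes brighter than the median gene, with values beyond 1.5 in the outermost bars. The lower panel shows each gene of 3 lists as a point, filled where the sets do not overlap. Mitosis genes lie within 0.21 of 0 on both sides, and 46 of 49 replication genes lie below 0.

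A further 101 measured genes of mitosis, in 5 lists, were set beside the members. Of these 55 were higher under the experimental label and 46 lower (median difference 0.01) and 0 passed. By number 44 were higher and 57 lower in numbers 1 and 2 (median -0.02), and 7 (6.93%) did not overlap, beside 10.6% of all genes. The kinesin and spindle list had 19 of 21 genes higher in the arrays labelled experimental, with a median difference of 0.11 beside 0.00 over all genes. The motors Kif15 (0.22 ± 0.14) and Kif18b (0.17 ± 0.14) and the spindle protein Psrc1 (0.15 ± 0.11) had its smallest p, and 0 of the 21 passed. Of 28 other kinetochore and centromere genes 10 were higher and 18 lower, of 14 condensin and cohesin genes 7 and 7, of 8 cytokinesis genes 6 and 2, and of 30 genes of entry into and exit from mitosis 13 and 17, all with 0 passing.

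The members did not move as a block from array to array. Over the 465 pairs of members the median Pearson correlation across the 8 arrays was 0.06, and 55.1% of pairs were above 0. These are descriptions over 8 points that share one normalization. The most alike were Aurkb and Ube2c (0.96) and Plk1 and Dlgap5 (0.88), and the most opposed were Ccna2 and Cenpe (-0.96) and Aurka and Bub1 (-0.91). Outside the members, the brighter genes whose level was most like their mean were Socs1 (0.94), A730017L22Rik (0.92), Pls1 (0.92), Tm9sf4, Cdca8, Cep131, Tab2 and Nat8f2 (each 0.91). Cdca8 (borealin) is a further subunit of the chromosomal passenger complex.

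A total of 16 members had more than 1 spot, 57 spots in all. Of the 26 dimmer spots, 15 had the sign of the brightest spot in the difference between the labelled groups. The second spot of Mad2l1 differed by -0.57 between numbers 1 and 2 and numbers 3 and 4, against -0.21 for its brightest, and that of Cenpf by 0.33, against 0.10. Other second spots had the opposite sign. That of Bub1 differed by 0.67, against -0.20 for its brightest, and that of Nuf2 by -0.56, against 0.10. With the mean of all spots Bub1 differed by 0.23 and Nuf2 by -0.23 between the numbers, so their direction there depends on the spot. The second spot of Bub1 had a mean of 3.24, under the array median of 4.43, against 9.79 for its brightest. That of Nuf2 had a mean of 6.08, against 10.20. Values of such dim spots are less certain. Spots that read different transcripts cannot be told from dimmer spots of the same one.

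Markers of the cell types in a lobe moved in part with the number. The mean of 10 pan-epithelial genes was 9.45 to 9.66 in numbers 1 and 2 and 9.74 to 9.85 in numbers 3 and 4. Of the 10, 7 were lower in numbers 1 and 2 and 3 higher. Nkx2-1 (-0.76) and Cldn6 (-0.67) differed most, and 3 did not overlap, all lower, beside 5.39% of all genes. The mean of 8 leukocyte genes was 8.86 to 8.98 in numbers 1 and 2 and 8.67 to 8.73 in numbers 3 and 4. All 8 were higher in numbers 1 and 2, and 1 did not overlap, beside 5.17% of all genes. The 7 genes of the distal tips, Etv5 among them, averaged 9.92 to 10.22 in numbers 1 and 2 and 11.51 to 11.61 in numbers 3 and 4. The means of the mesenchyme, endothelium and erythroid lists overlapped between the numbers. Of the 10 mesenchyme genes 3 did not overlap, beside 10.6% of all genes. Col1a1 (0.21) and Meox2 (0.38) were higher in numbers 1 and 2 and Foxf1 (-0.36) lower. In the endothelium and erythroid lists 0 genes were without overlap. With the label, 7 of 8 cardiac muscle genes were lower in sign in the arrays labelled experimental, with a difference of -0.33 in the mean of the list. Squamous and basal genes averaged 7.45 in control 1 and 5.51 to 5.75 elsewhere. The part of these cells in the values above was not tested.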

How the data were processed

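The authors amplified total RNA of left lung lobes, labelled it with Cy3, hybridized it to Agilent mouse arrays and extracted spot signals with Mapix. With limma they removed background (normexp fitted to negative controls, offset 1) and quantile-normalized the arrays. The authors deposited the result as log2 signals of 62976 spots. Base 2 was read from the values, whose highest was 16.00. No spot was called detected or not, since scanner files were not analysed here. The number of arrays limits the precision.

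Spots were named through the platform annotation (43941 with 1 symbol, 0 with several, 19035 with none), and symbols were updated through RefSeq accessions (GRCm38.p6, 33708 spots matched). A total of 2 spots lacking a value were left out. Each gene was read from its brightest spot, after the study's rule. Differences were fitted over 24583 genes as experimental minus control (limma 3.58.1, R 4.3.3, two-sided, without a block), and the fits were tested on simulated data. The title number was tested as a factor of 4 levels beside the label.

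Members and lists were chosen with earlier results of these data known. Every member is named. Values in every array are given for Mki67, Prc1, the 4 members of smallest p, the 4 at each end of the difference between numbers, and 1 per remaining role. The 8 brighter genes most correlated with the mean of the members, and stretches of up to 6 promoters, are given. Of other lists, up to 3 genes of smallest p are named, and Etv5, Etv4, Sox9, Mcm2, Mybl2, Foxm1, Tfdp1, E2f4, E2f8, Aurka and Aurkb were singled out after their values were seen. The 2 arrays of a number deviated together from their groups, with correlations of 0.109, 0.146, 0.124 and 0.117 across genes, which is above the limit used for pairing (0.1), and the numbers come from the titles.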

Additional observations from a re-analysis of the deposited data

Results flagged for a closer look

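In 64 searches (31 genes and their mean, in each labelled group of 4 arrays) 2 arrays lay far from the other 3 of their group. For independent values chance gives about 1 in 20. Ccnb2 was 12.92 in control 2, against 12.70 to 12.72 in the other controls. Cenpf was 11.20 in control 3, against 11.40 to 11.44 in the other controls.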

How the results depend on the processing

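Between the labelled groups 0 mitosis genes passed under each alternative. These were the replicate number as a block (0 of 24583 genes as well), each array left out and the mean of all spots. Others were brighter genes only, cyclic loess, 16 added before log2, an ordinary t-test without moderation and an intensity trend. An unadjusted p under 0.05 by limma gave 0 members as well, beside 876 of all genes, and beside 1182 with the block. At an unadjusted p under 0.05 the ordinary t-test called 788 genes, Prc1 among them. The mean difference of the members was 0.03 and ran between 0.02 and 0.04 without 1 array, and it was 0.01 with the mean of all spots. Single members kept the sign of their difference in 545 of 589 repeats.

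By title number 0 mitosis genes passed in any repeat. Over all genes the count of 7 became 11 with the mean of all spots, 84 among brighter genes only, 64 with 16 added before log2, 735 with an intensity trend, 2418 at an unadjusted p under 0.05, and 0 without any 1 array or without both arrays of any number. The last repeat was chosen after the data were seen. With the mean of all spots Bub1 and Nuf2 changed sign between the numbers, their second spots being much dimmer (means of 3.24 and 6.08). The members' mean difference between numbers 1 and 2 and numbers 3 and 4 was -0.01, with a range of -0.02 to 0.004 without 1 array. The 3 members with no overlap became 4 to 6 without 1 array and 9, 10, 8 and 8 without both arrays numbered 1, 2, 3 and 4, as fewer arrays overlap less often by construction. Background correction and slide could not be varied from the deposited values.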
